A study of Mus musculus with 6 samples.

Results

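The genes described here encode the core machinery of autophagy, the vacuolar proton pump (V-ATPase) and the lysosomal cathepsins. They were chosen by symbol from the deposited gene table. The rule took symbols beginning with Atg and a digit, symbols of the Atp6v and Atp6ap series, symbols of Cts and a single letter, the Map1lc3 and Gabarap genes, and Sqstm1, Becn1, Ulk1, Ulk2, Lamp1, Lamp2 and Tfeb. It found 72 of the 34433 symbols in the table, and Map1lc3b was not among them. A transcript level is given in FPKM, fragments per kilobase of exon scaled to the mapped fragments of the sample, which is a level per length and allows levels of different genes to be compared. Of the 72 members, 57 reached at least 1 FPKM in either genotype with more than 0 FPKM in both, and log2 ratios were formed for these.

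The samples were motor neurons (MNs) derived from mouse embryonic stem cells (mESCs) of the FVB/N background and isolated by FACS for eGFP driven by the Hb9 (Mnx1) promoter, with 3 samples for each of 2 lines. The Hb9 control line carries the human SMN2 transgene and intact mouse Smn (SMN2+/+;mSmn+/+, labelled wildtype), and the A2 SMA line carries the same transgene without functional mouse Smn (SMN2+/+;mSmn-/-). In both, embryoid bodies received 1 µM retinoic acid and 1 µM Smoothened agonist over 5 days. Each genotype is represented by a single mESC line, so genotype and line cannot be told apart. The table gives 1 pooled FPKM value per genotype for the 3 samples, so there is no replicate check, no SD and no test for any difference below, and the table does not give the number of reads behind a value.

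In autophagy, the ULK kinase complex and a lipid kinase complex built on Beclin 1 start a membrane that ATG9 vesicles and the lipid transfer protein ATG2 extend. Ubiquitin-like conjugation then attaches ATG8 proteins (the LC3 and GABARAP families) to that membrane, which closes around its cargo and fuses with a lysosome. There the V-ATPase pumps protons into the lumen and cathepsins digest the cargo. Motor neurons form autophagosomes far out in the axon and carry them back to the cell body, and TFEB, a transcription factor of the lysosomal system, binds a palindromic E-box in the promoters of many of these genes.

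The letters of that E-box, CACGTG, stood in the promoter windows of 13 members, and the stretches of 6 of them are shown because they carry it beside the transcription start site and come from a lysosomal membrane protein, a cathepsin, 3 pump subunits and an autophagy initiator. Each is given 5′ to 3′ on the strand of the gene, from 80 bases before to 20 bases after the start site, as in RefSeq on GRCm38.p6, with CACGTG in capitals.
Lamp1 (chr8:13159081-13159180, plus strand): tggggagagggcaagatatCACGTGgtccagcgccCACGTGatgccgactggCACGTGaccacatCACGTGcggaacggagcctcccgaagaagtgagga
Ctsa (chr2:164833693-164833792, plus strand): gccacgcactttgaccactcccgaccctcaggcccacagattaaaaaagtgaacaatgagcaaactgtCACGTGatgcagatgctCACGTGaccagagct
Atp6v0b (chr4:117887310-117887409, minus strand): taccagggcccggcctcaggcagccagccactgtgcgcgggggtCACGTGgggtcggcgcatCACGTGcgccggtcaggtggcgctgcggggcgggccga
Atp6v0d1 (chr8:105566045-105566144, minus strand): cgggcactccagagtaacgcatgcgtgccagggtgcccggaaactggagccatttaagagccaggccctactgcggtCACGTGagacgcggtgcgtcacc
Atp6v0e (chr17:26676316-26676415, plus strand): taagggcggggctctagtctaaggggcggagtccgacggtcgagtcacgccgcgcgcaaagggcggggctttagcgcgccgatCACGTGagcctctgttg
Atg14 (chr14:47568415-47568514, minus strand): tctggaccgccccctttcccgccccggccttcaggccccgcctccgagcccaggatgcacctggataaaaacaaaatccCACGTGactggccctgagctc
The Lamp1 stretch held 4 copies of the letters within 100 bases. Ctsa and Atp6v0b held 2 each, and Atp6v0d1, Atp6v0e and Atg14 held 1 each at or within a few bases of the start site.

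The level of Smn1, the gene missing in A2 cells, was 137 FPKM in the Hb9 control and 5.26 FPKM in A2 SMA MNs, 25.9-fold lower. Mnx1, whose promoter drove the reporter used in the sort, was at 41.2 and 44.2 FPKM (in pairs of values, the Hb9 control comes first). Of the 7 MN markers that passed the floor, 6 were at least 2-fold lower in A2 SMA MNs, 4 of which passed it through the Hb9 control alone and so had to be lower. The list summed to 248 FPKM in the Hb9 control and 53.2 FPKM in A2 SMA MNs. Lhx3, Olig2, Lhx4 and Chat, the last 2 of which are named after their values were seen, were under 1 FPKM in A2 SMA MNs alone, and Slc5a7, also named after its values were seen, was under 1 FPKM in both genotypes. All 8 pan-neuronal markers were at least 2-fold lower in A2 SMA MNs (summed level 1204 and 131 FPKM) and all 8 pluripotency markers were at least 2-fold higher (222 and 1495 FPKM), and none of these markers was listed at 0. Of the pan-neuronal markers, 2 passed the floor through the Hb9 control alone. Of 8 endoderm markers past the floor 2 were lower and 1 was higher, near the 22.2% and 6.78% of all symbols past the floor (summed level 131 and 85.1 FPKM). In bulk samples, fewer cells of a type and less RNA per cell cannot be told apart. The part of these marker differences in the values below was not tested.

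Most members stood at close levels in both genotypes. The median log2 ratio of A2 SMA over Hb9 control MNs over the 57 members was -0.27 (quartiles -0.88 and 0.03), and over all 15784 symbols that passed the same floor it was -0.29 (quartiles -0.89 and 0.19). Because the median symbol was itself lower in A2 SMA MNs, ratios are also given relative to it, that is, with -0.29 taken off. Below 0 were 41 of the 57 members (71.9%, against 65.9% of all symbols), and 27 were below the median symbol while 30 were above it. A level within 1.5-fold in the 2 genotypes was found for 35 members (61.4%, against 52.2% of symbols).

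At least 2-fold lower in A2 SMA MNs were 9 members (15.8%, against 22.2% of all symbols), namely Atp6v1g2, Atp6v0e2, Ctso, Ulk2, Atg4a, Gabarap, Ctsh, Ctsf and Atp6v0a1. At least 2-fold higher were 2 members (3.5%, against 6.78% of all symbols), Ulk1 and Atg14. Both shares lie below those of the whole table, so a 2-fold difference was no more frequent among these genes than among all symbols. Atp6v1g2 and Atg4a passed the floor through the Hb9 control alone, so a lower level in A2 SMA MNs follows from the floor for them. Relative to the median symbol, 7 members were lower (12.3%, against 16.5%) and 4 higher (7.0%, against 10.3%), since Atp6v0a1 and Ctsf left the first group and Tfeb and Atg9b entered the second. At 1.5-fold, 17 members were lower (29.8%, against 35.2%) and 5 higher (8.8%, against 12.6%). The lower members nearest to the 2-fold limit were Atp6v0a1 inside it (log2 ratio -1.03) and Map1lc3a (-0.99) and Gabarapl1 (-0.98) outside it, and the higher ones were Atg14 inside it (1.15) and Atg9b outside it (0.77). The level of all 57 genes is drawn by genotype in the plot of pooled levels.

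**Figure D1:**
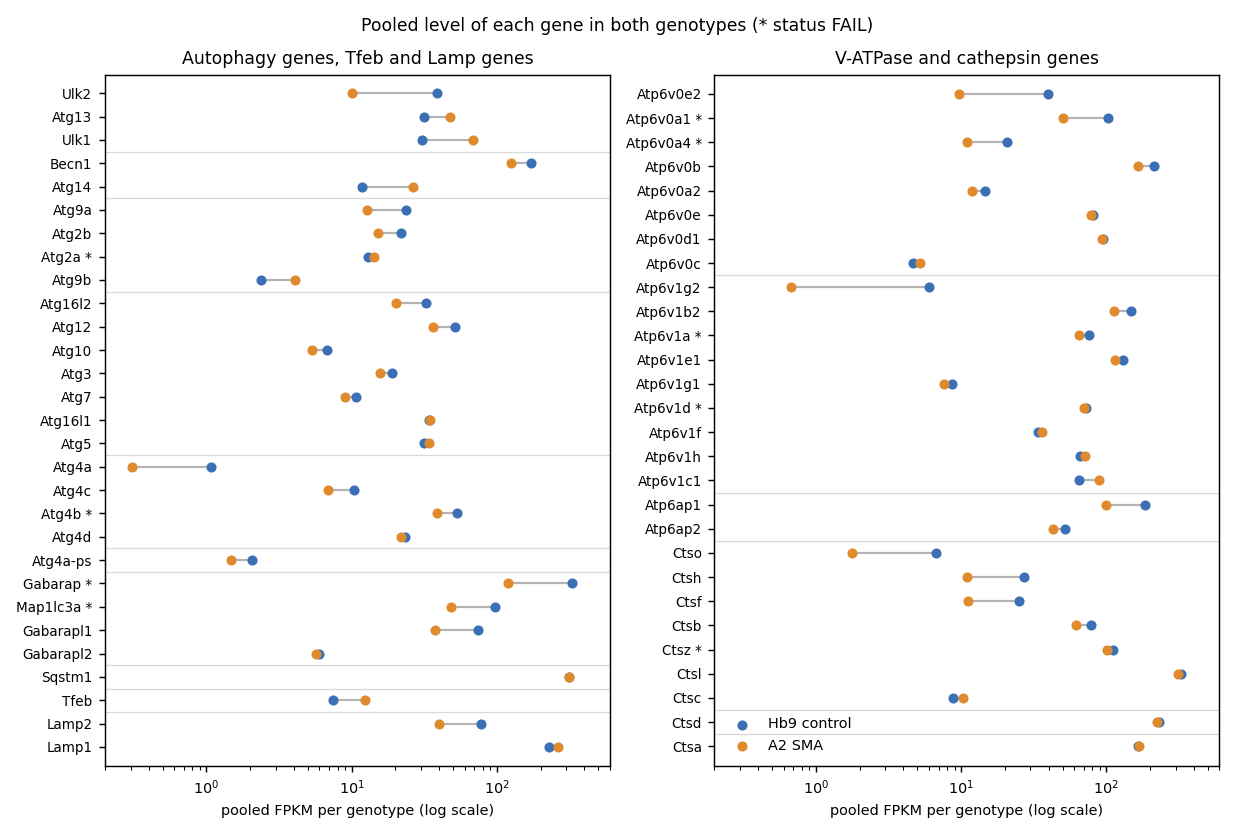
Pooled FPKM on a log axis for the 57 members past the floor, with a blue point for Hb9 control MNs, an orange point for A2 SMA MNs and a line joining them. Grey lines separate the roles and an asterisk marks the status FAIL. Most pairs of points nearly coincide, as for Sqstm1 at 314 FPKM in both, while Atp6v1g2 has the longest line, from 5.96 to 0.677 FPKM.

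The kinases that start autophagy showed opposite differences. Ulk1 was at 30.7 FPKM in the Hb9 control and 69.0 FPKM in A2 SMA MNs (log2 ratio 1.17, 1.45 relative to the median symbol). Its paralog Ulk2 was at 38.4 and 10.1 FPKM (log2 ratio -1.93), 3.81-fold lower in A2 SMA MNs. The summed level of the pair was 69.1 and 79.0 FPKM, while Ulk1 made up 44.5% of it in Hb9 control MNs and 87.3% in A2 SMA MNs. On NCBI m37, the build of the table, Ulk1 lies at chr5:111213507-111239124 and Ulk2 at chr11:61589151-61668575. Atg13, the adaptor subunit of the same complex, was at 31.4 and 47.8 FPKM (0.61). 9430023L20Rik, the older symbol of its partner Atg101, lies outside the rule and was at 37.5 and 47.0 FPKM, a gene chosen after its values were seen.

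Among nucleation genes, Atg14, which directs the Beclin 1 lipid kinase complex to autophagosome formation, was at 11.8 FPKM in the Hb9 control and 26.3 FPKM in A2 SMA MNs, 2.22-fold higher. Becn1, the scaffold of that complex, was the far more abundant of the pair, at 173 and 126 FPKM (log2 ratio -0.46). Atg14 and Becn1 thus differed in opposite directions, also relative to the median symbol (1.44 and -0.18). Becn1 shares 45.7% of the 50-base windows of its longest transcript with transcripts of other genes, most of them with Cntd1, so its level is uncertain.

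Membrane supply genes were all at modest levels. Atg9a, the transmembrane scramblase of the vesicles, was at 23.7 FPKM in the Hb9 control and 12.8 FPKM in A2 SMA MNs (-0.89), and Atg9b was at 2.37 and 4.04 FPKM (0.77), in an entry that it shares with Gm15587. Atg9a shares 42.6% of its windows with other genes, so its level too is uncertain. Atg9b thus made up 9.09% of the summed level of the pair in Hb9 control MNs and 24.0% in A2 SMA MNs. Of the lipid transfer proteins, Atg2a was at 13.0 and 14.2 FPKM (0.12) and Atg2b at 22.0 and 15.2 FPKM (-0.54).

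None of the 7 genes of the conjugation system passed 2-fold in either direction. Their log2 ratios ran from -0.69 for Atg16l2 (32.3 and 20.05 FPKM), a paralog of the scaffold Atg16l1, to 0.12 for Atg5 (31.5 and 34.3 FPKM), which is joined covalently to Atg12. Atg16l1 itself was at 34.1 and 34.7 FPKM. The most abundant of the group was Atg12, the ubiquitin-like modifier, at 51.1 and 36.4 FPKM (-0.49). Atg7, the activating enzyme, was at 10.7 and 8.97 FPKM (-0.26), and the conjugating enzymes Atg3 (19.0 and 15.8 FPKM, -0.27) and Atg10 (6.75 and 5.37 FPKM, -0.33) were close to it in ratio. The ratios of Atg3 and Atg7 were below 0 but above that of the median symbol.

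All 4 ATG4 proteases, which trim ATG8 proteins and release them from membranes, had ratios below 0. Atg4b, the most abundant, was at 53.3 FPKM in the Hb9 control and 38.4 FPKM in A2 SMA MNs (-0.47), Atg4c at 10.4 and 6.87 FPKM (-0.61) and Atg4d at 23.2 and 21.7 FPKM (-0.10, above the median symbol). Atg4a was 3.55-fold lower (log2 ratio -1.83, and -0.67 with a pseudocount of 1 FPKM), but at 1.08 and 0.305 FPKM it sat at the floor, and 63.6% of its 50-base windows recur in other genes, above all in the pseudogene Atg4a-ps. That pseudogene, also taken by the rule, was at 2.05 and 1.47 FPKM with 72.2% of its windows shared, so the values of the pair are uncertain.

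The ATG8 genes held the largest difference in FPKM among the autophagy genes. Gabarap was at 330 FPKM in Hb9 control MNs, the highest level of any member in that genotype, and at 120 FPKM in A2 SMA MNs (log2 ratio -1.46, -1.18 relative to the median symbol). Map1lc3a, which encodes an LC3 protein, was at 96.5 and 48.7 FPKM (-0.99), and Gabarapl1 at 74.1 and 37.6 FPKM (-0.98). Gabarapl2 stood apart at 5.92 and 5.66 FPKM (-0.07, above the median symbol), and 17.0% of its windows recur in other genes. The 4 genes together summed to 507 FPKM in the Hb9 control and 212 FPKM in A2 SMA MNs (log2 ratio -1.26). Cuffdiff gave Gabarap and Map1lc3a the status FAIL, which marks an entry whose computation was not completed, and the Map1lc3a entry spans 120898 bases, 68.0 times the span of the gene in GENCODE M21. Gabarap lies at chr11:69804645-69808453 (NCBI m37), a span like that of the gene alone.

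Sqstm1 (p62), the receptor that ties ubiquitinated cargo to ATG8 proteins and is itself degraded with it, was at 314 FPKM in both genotypes (log2 ratio 0.00, 0.29 relative to the median symbol). Tfeb was at 7.46 FPKM in the Hb9 control and 12.4 FPKM in A2 SMA MNs (0.74), 2-fold higher only relative to the median symbol (1.02). The lysosomal membrane glycoproteins differed from each other, with Lamp1 at 229 and 263 FPKM (0.20) and Lamp2, which also serves chaperone-mediated autophagy, at 77.8 and 40.2 FPKM (-0.95). Over the 26 members of autophagy proper, counting the pseudogene Atg4a-ps but not Tfeb or the Lamp genes, 18 were below 0 and 14 below the median symbol. Of the 26, 3 were at least 2-fold lower and 2 higher, beside the same 22.2% and 6.78% of all symbols.

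**Figure D2:**
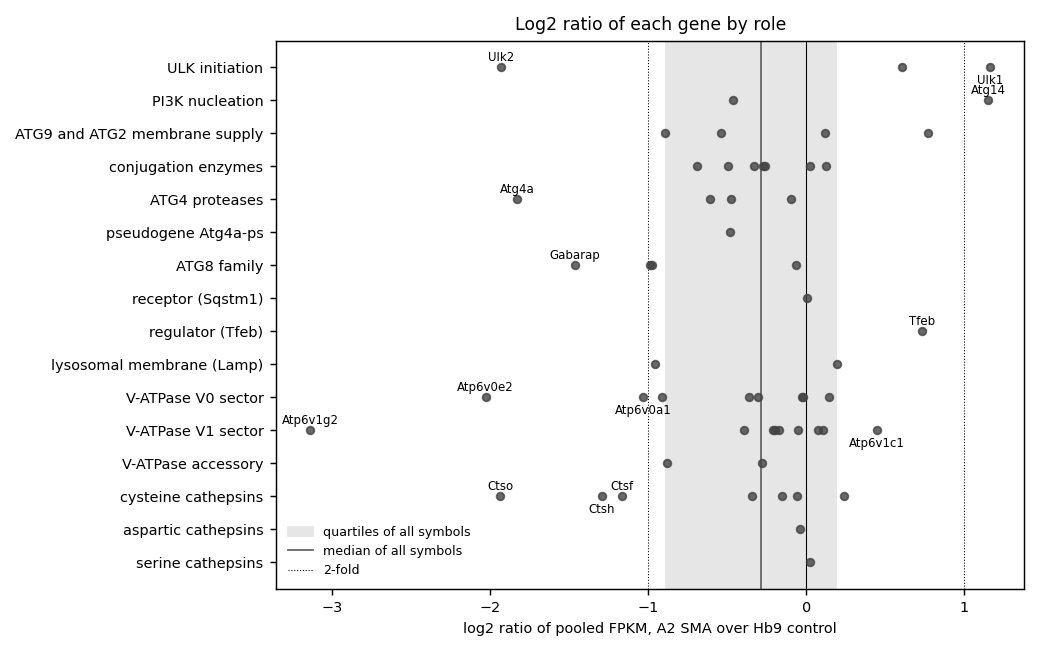
Log2 ratio of pooled FPKM, A2 SMA over Hb9 control MNs, with 1 point for each of the 57 members past the floor and 1 row for each role. The grey band spans the quartiles of all 15784 symbols (-0.89 to 0.19), the grey line is their median (-0.29) and dotted lines mark 2-fold. Ulk1 (1.17) and Atg14 (1.15) lie beyond the right dotted line and 9 members lie beyond the left one.

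The V-ATPase has a membrane sector, V0, through which protons pass, and a cytosolic sector, V1, which hydrolyses ATP. Of its 25 genes 19 passed the floor, with a median log2 ratio of -0.21. At least 2-fold lower were 3 of the 19 and none was higher, beside 22.2% and 6.78% of all symbols, so the counts do not set the pump apart. Below 0 were 15 of the 19, and 8 were below the median symbol. Several subunits present as a single expressed gene stood at close levels. In V1, these were Atp6v1a, the catalytic subunit A (75.4 and 65.1 FPKM), Atp6v1d of the central shaft (72.3 and 69.8 FPKM), Atp6v1f (34.0 and 35.8 FPKM) and Atp6v1h, which regulates the sector (66.0 and 71.2 FPKM). In V0, Atp6v0d1, which couples the sectors, was at 94.2 and 92.8 FPKM (-0.02), and Atp6v0b, a proteolipid of the rotating ring, at 214 and 166 FPKM (-0.36).

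Where a subunit has several genes, 1 gene carried nearly all of the level for subunits B, C, d and E. Atp6v1b2 was at 148 and 113 FPKM (-0.39), Atp6v1e1 at 131 and 114 FPKM (-0.20) and Atp6v1c1 at 64.9 and 88.6 FPKM, the highest ratio of the pump (0.45). Their paralogs Atp6v1b1, Atp6v1c2, Atp6v0d2 and Atp6v1e2, known from kidney, testis and other specialised tissues, stayed under 1 FPKM in both genotypes, as did Atp6v1g3.

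The pump genes at least 2-fold lower in A2 SMA MNs were Atp6v1g2, Atp6v0e2 and Atp6v0a1. Atp6v1g2, the brain form of the stator subunit G, was at 5.96 FPKM in the Hb9 control and 0.677 FPKM in A2 SMA MNs, 8.80-fold lower and the lowest ratio of all members (-3.14, and -2.05 with a pseudocount of 1 FPKM). Atp6v1g1, its widely expressed paralog, was at 8.65 and 7.67 FPKM (-0.17, above the median symbol), so that Atp6v1g2 made up 40.8% of the summed level of subunit G in Hb9 control MNs and 8.08% in A2 SMA MNs. Atp6v0e2, likewise most abundant in brain, was at 39.7 and 9.73 FPKM, 4.08-fold lower, beside Atp6v0e at 80.2 and 78.9 FPKM (-0.03, above the median symbol). Its share of subunit e was 33.1% in Hb9 control MNs and 11.0% in A2 SMA MNs. The pan-neuronal markers were also lower, 8 of 8, although 2 of them and Atp6v1g2 passed the floor through the Hb9 control alone, and the part of that difference in these shares was not tested. The widely expressed paralog was the more abundant of each pair in both genotypes.

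Subunit a sets where in the cell the pump resides. Atp6v0a1, the form abundant at synapses, was at 102 FPKM in the Hb9 control and 49.99 FPKM in A2 SMA MNs (-1.03, status FAIL). Atp6v0a4 was at 20.8 and 11.0 FPKM (-0.91) in an entry shared with D630045J12Rik, and Atp6v0a2 at 14.5 and 11.8 FPKM (-0.30). Among these 3 members, Atp6v0a1 made up 74.3% of the summed level in the Hb9 control and 68.7% in A2 SMA MNs. These are not shares of the whole subunit, since another of its genes, Tcirg1, lies outside the rule and was left out, at 128 and 103 FPKM in an entry shared with Ndufs8 (a gene named after its values were seen). Of the accessory proteins, Atp6ap1 was at 184 and 99.7 FPKM (-0.88) and Atp6ap2, also known as the prorenin receptor, at 51.6 and 42.6 FPKM (-0.28, just above the median symbol), while Atp6ap1l was under the floor at 0.186 and 0.582 FPKM. Atp6v0c, the main proteolipid of the ring, was listed at only 4.66 and 5.16 FPKM, and 32.5% of its windows recur in other genes, mostly in Atp6v0c-ps2. For Atp6v1g1 that share was 19.2%, and how reads with several matches were counted is not given in the sources used here, so these levels are uncertain.

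**Figure D3:**
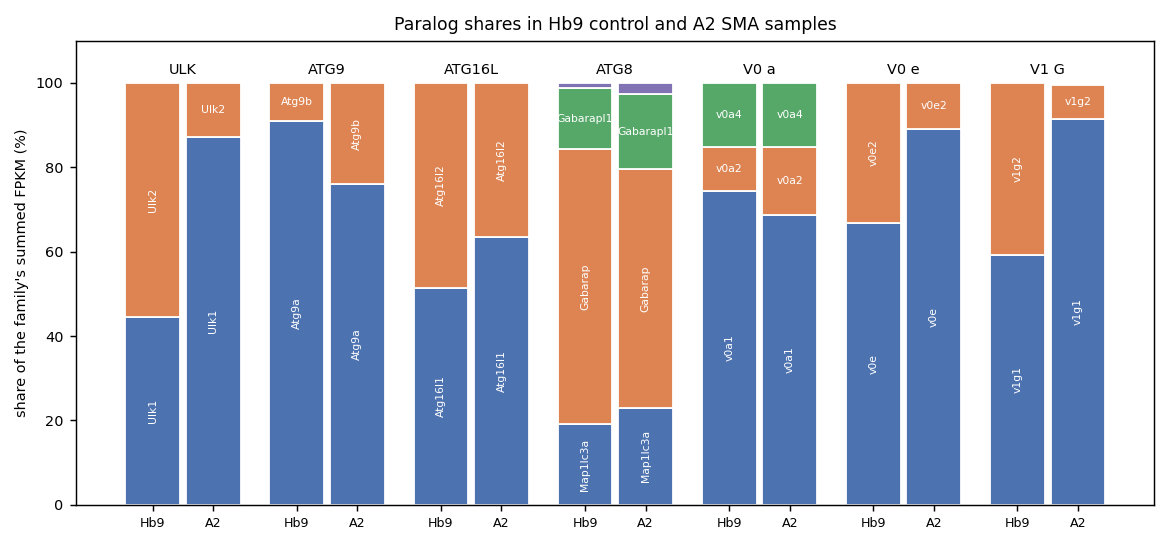
Share of each paralog in the summed FPKM of the members of its family, in percent (V0 a without Tcirg1, which is no member), with the left bar of a pair for Hb9 control MNs and the right bar for A2 SMA MNs. The unlabelled top segment of the ATG8 bars is Gabarapl2, and the gap at the top of the right V1 G bar is Atp6v1g3. The division between Ulk1 and Ulk2 differs most, with Ulk2 at 55.5% and 12.7%, followed by subunits G and e.

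Of the 18 cathepsin genes 9 passed the floor, with a median log2 ratio of -0.15. At least 2-fold lower were 3 of the 9 and none was higher, beside 22.2% and 6.78% of all symbols, and so few genes do not set the group apart. Below 0 were 7 of them, and below the median symbol 4. The 5 most abundant stood at close levels in both genotypes. Ctsl, a cysteine endopeptidase, was at 325 and 312 FPKM, Ctsd, the main aspartic protease of lysosomes, at 229 and 223 FPKM in an entry shared with 6330512M04Rik, and Ctsa, a serine carboxypeptidase that also protects lysosomal glycosidases, at 164 and 167 FPKM. Ctsz, a cysteine carboxypeptidase, was at 112 and 101 FPKM (status FAIL) and Ctsb, both an endo- and an exopeptidase, at 78.1 and 61.5 FPKM (-0.34). Relative to the median symbol, Ctsl, Ctsd and Ctsz were above it and Ctsb just below.

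The 3 cathepsins that were 2-fold lower in A2 SMA MNs were cysteine proteases at lower levels, although Ctsc, lower still than Ctsh and Ctsf in the Hb9 control, was not among them. Ctso was at 6.72 FPKM in the Hb9 control and 1.76 FPKM in A2 SMA MNs (-1.93), Ctsh, an aminopeptidase, at 26.9 and 11.0 FPKM (-1.29), and Ctsf, whose loss in humans causes a neuronal storage disease, at 24.96 and 11.1 FPKM (-1.16, -0.88 relative to the median symbol). Ctsc, a dipeptidyl peptidase that activates serine proteases of immune cells, was at 8.79 and 10.4 FPKM (0.24). Ctss, Ctsk, Ctsw, Ctse and Ctsg, known from immune cells, osteoclasts or stomach, were under 1 FPKM in both genotypes. Of the 10 markers of macrophages and microglia, which are rich in lysosomes, 9 were under 1 FPKM in both genotypes and C1qa and C1qb, named after their values were seen, were listed at 0 in both, whereas Cd68 was at 16.6 and 23.0 FPKM. Markers of fibroblasts, which also make cathepsins, summed to 74.8 FPKM in the Hb9 control and 39.8 FPKM in A2 SMA MNs, with 5 of 9 at least 2-fold lower and 1 higher, beside 22.2% and 6.78% of all symbols. Of these 6 genes, 2 lower ones passed the floor through the Hb9 control alone and the higher one through A2 SMA MNs alone. The part of fibroblast markers in the cathepsin values was not tested.

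The 4 rodent placental cathepsins taken by the rule were all listed at 0 FPKM in Hb9 control MNs. In A2 SMA MNs, Ctsj was at 4.87 FPKM, Ctsq at 0.483 FPKM, Ctsr at 0.359 FPKM and Ctsm at 0, and no fold is given against a value of 0. These 4 genes lie close together on chromosome 13, from the start of Ctsj at 61101639 to the end of Ctsm at 61643199 (NCBI m37). Of the 8 trophoblast markers, 4 were listed at 0 in Hb9 control MNs and 1 in A2 SMA MNs. The list summed to 16.2 and 31.8 FPKM, most of it Hand1 at 14.7 and 26.7 FPKM (status FAIL), while Prl3b1 was at 0 and 1.21 FPKM and Tpbpa at 0 and 1.04 FPKM.

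Of the 13 members that reached 100 FPKM in either genotype, 2 differed by at least 2-fold, Gabarap and Atp6v0a1, both with the status FAIL. Without the 9 members of that status (the others being Map1lc3a, Atg2a, Atg4b, Atp6v0a4, Atp6v1a, Atp6v1d and Ctsz), 7 of 48 were 2-fold lower and 2 higher. The sign of the ratio turned relative to the median symbol for 14 members, all of them slightly below 0 before: Atg3, Atg4d, Atg7, Gabarapl2, Atp6ap2, Atp6v0d1, Atp6v0e, Atp6v1a, Atp6v1d, Atp6v1e1, Atp6v1g1, Ctsd, Ctsl and Ctsz. The entry was more than 3 times as long as the gene in GENCODE M21 for 9 members, Map1lc3a, Atg4a-ps, Atp6v1d, Ctsd, Atp6v1g2, Atg9b, Ctsa, Sqstm1 and Atp6v1b2, and the part of neighbouring sequence in their values was not tested. No 50-base window was shared with another gene for 39 of the 72 members.

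Beyond the members, lists of other autophagy and lysosome genes held 126 genes past the floor, with a median log2 ratio of -0.34, 12 at least 2-fold lower and 7 higher, beside a median of -0.29 and shares of 22.2% lower and 6.78% higher over all symbols. Neither direction was reached by the 17 other core autophagy genes (Vmp1 at 101 and 71.3 FPKM, Stx17 at 14.9 and 8.63 FPKM), the 12 cargo receptors (Nbr1 at 267 and 200 FPKM, Bnip3l at 59.3 and 33.6 FPKM), the 4 hydrolase activators (Psap at 344 and 251 FPKM) or the 7 genes of late endosome fusion (Vps16 at 170 and 140 FPKM). Of the 33 lysosomal hydrolases, 7 were lower and 3 higher, counts near those shares. Manba, the lysosomal beta-mannosidase, was at 52.0 and 227 FPKM (2.13), the highest ratio of the list. The others that were higher, Dnase2a (1.41) and Acp5 (1.73, status FAIL), are named after their values were seen.

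Enzymes reach lysosomes through sorting receptors, and of the 6 genes listed for sorting 2 were lower, beside 22.2% of all symbols. They were Sort1, a receptor that works without the mannose 6-phosphate tag of the other 5 (67.9 and 19.0 FPKM, -1.83, in an entry shared with Gm12525), and Gnptg (38.4 and 16.5 FPKM, -1.22). Inhibitors of cathepsins and related proteases differed in both directions, with Serping1 at 22.2 and 6.76 FPKM (-1.72), Serpinb6a at 26.6 and 53.9 FPKM (1.02) and the abundant cystatin Cst3 at 220 and 134 FPKM (-0.71). Among the 21 lysosomal membrane proteins, Atp13a2 was lower (92.6 and 45.4 FPKM, -1.03) and Laptm5 higher (6.20 and 20.7 FPKM, 1.74). Of the 22 genes that regulate mTORC1 and TFEB at the lysosome, Rragd was lower (52.1 and 20.5 FPKM, -1.35, status FAIL), Deptor, an inhibitor of mTOR, was higher (2.12 and 5.09 FPKM, 1.26) and so was Mitf, a relative of TFEB that is named after its values were seen (1.75 and 4.19 FPKM, 1.26).

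**Figure D4:**
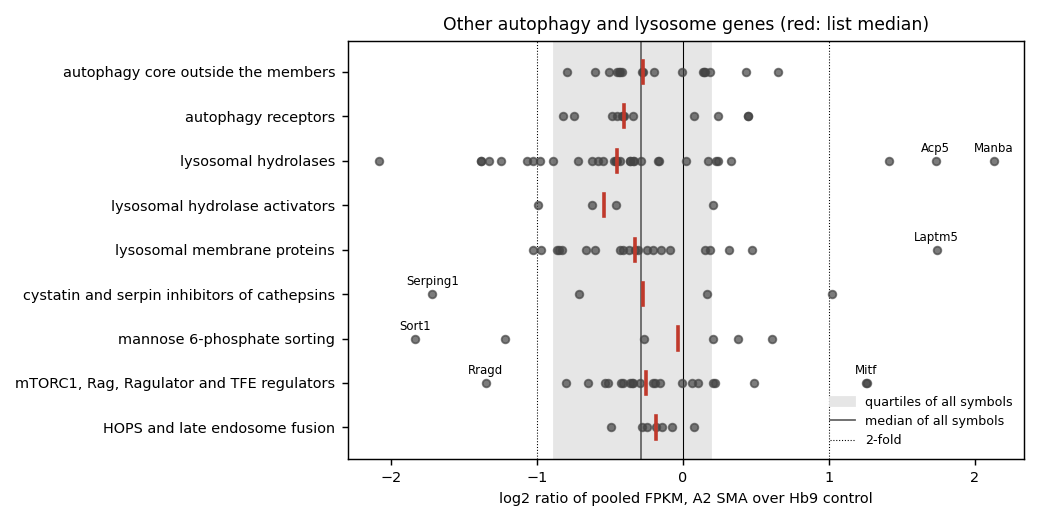
Log2 ratio of pooled FPKM, A2 SMA over Hb9 control MNs, for the 126 genes of 9 further autophagy and lysosome lists, with 1 point for a gene (the mannose 6-phosphate row includes Sort1), a red bar for the median of a list, and the grey band, grey line and dotted lines as in the plot by role. Manba at 2.13 lies farthest to the right, and the core, receptor, activator and fusion rows stay within the dotted lines.

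The E-box letters shown above were found in 13 of the 56 members with a RefSeq promoter window, from 250 bases before to 50 bases after a start site (23.2%). The letters stood in 7.15% of all 32851 windows of the table, in 8.09% of all symbols with a window and in 11.8% of those past the floor. Among the members past the floor that have a window, 13 held the letters and 32 did not. The longer form TCACGTGA always contains CACGTG and like it reads the same on both strands. It stood in 6 members (10.7% of those with a window), in 1.12% of all symbols with a window and in 2.14% of those past the floor. Among the members past the floor that have a window, 6 held this longer form and 39 did not. The members with CACGTG were Lamp1, Ctsa, Ctsd, Ctsf, Ctsl, Atp6v0b, Atp6v0d1, Atp6v0e, Atp6v1a, Atg3, Atg5, Atg7 and Atg14. A match is a description of letters and not a binding site.

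These 13 genes had a median log2 ratio of -0.04, from -1.16 for Ctsf to 1.15 for Atg14, with 1 at least 2-fold lower and 1 higher. The 32 members past the floor whose windows lack the letters had a median of -0.40, with 7 lower and 1 higher, and over all symbols 22.2% were lower and 6.78% higher. Of the 7, Atp6v1g2 and Atg4a had to be lower by the floor. Over all symbols the medians were -0.17 for the 1173 with the letters and -0.33 for the 8783 without, so the order was the same as among the members. Lamp1, with 4 copies, was at 229 and 263 FPKM, and the 3 pump genes whose stretches are printed had ratios from -0.36 to -0.02. No test was made of this difference, since each gene has 1 value per genotype.

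**Figure D5:**
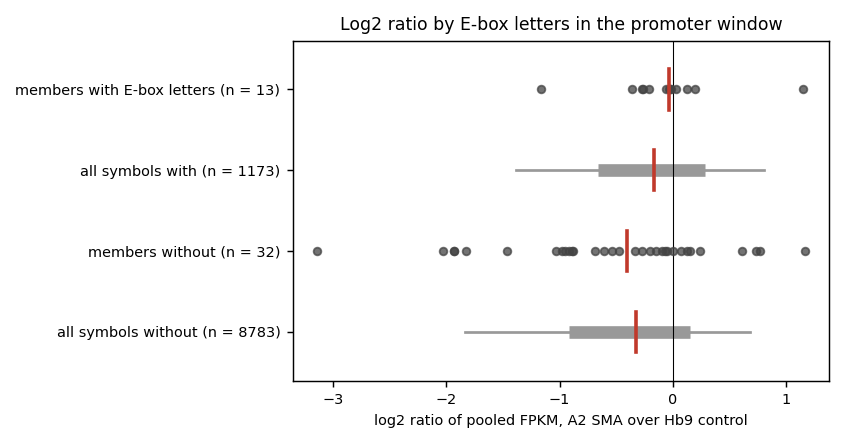
Log2 ratio of pooled FPKM, A2 SMA over Hb9 control MNs, by the presence of CACGTG in the promoter window. Points are members, thick grey bars span the quartiles and thin bars the 10th to 90th percentiles of all symbols, and red bars are medians. The members with the letters cluster near 0 (median -0.04) apart from Ctsf and Atg14, and the members without them spread from -3.14 to 1.17.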

How the data were processed

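MNs of 2 genotypes were compared by single-end RNA-Seq, with 3 samples each. Per the labels and methods, the authors checked reads with FastQC 0.10.1, removed adapters with cutadapt, used TopHat 2.04 for mapping to NCBI m37 (Ensembl annotation) and ran Cufflinks and Cuffdiff for assembly, transcript abundance and the contrast of genotypes. The gene table deposited by the authors gives 1 FPKM value per genotype, which pools the samples. Of its 41945 entries, 4684 carry no symbol. Its columns of log2 fold change, test statistic, p, q and significance hold the authors' own comparison and were not used, and the status served as a flag. The table gives no depth, the read totals of the samples were not used here, and values of single samples were not analysed here.

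Entries naming several symbols were split, and the entry with the highest FPKM stood for a symbol. Log2 ratios were formed without a pseudocount where a symbol reached 1 FPKM in either genotype and was above 0 in both, and were tested on simulated data. All members, and of each further list the 2 most abundant genes and the 2 with the largest ratio, may be named, with Smn1 and Mnx1 as checks. Not every gene this rule would name is reported here. Members and lists were chosen with earlier results of these data known. Alternatives were pseudocounts, other floors, a 1.5-fold limit, centring on the median symbol, summed entries, and leaving out shared or failed entries. Python 3.11.15, numpy 2.4.6, pandas 2.3.3 and matplotlib 3.10.9 were used. Positions are 1-based on NCBI m37, except for promoters.

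Promoter windows came from RefSeq on GRCm38.p6 and matched 56 of the 72 members by symbol, without Atg12, Atg16l1, Atg4a-ps, Atp6ap1l, Atp6v0a2, Atp6v0d2, Atp6v1b2, Atp6v1c1, Atp6v1g1, Atp6v1h, Becn1, Ctsb, Ctse, Ctsh, Ctsw and Map1lc3a. Shared sequence is the share of 50-base windows of the longest GENCODE M21 transcript that recur, on either strand, in transcripts of another gene.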

Additional observations from a re-analysis of the deposited data

How the results depend on the processing

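With 1 pooled value per genotype, no replicate could be left out, and differences have no error. No paired analysis was possible because the table gives no values of single samples. The count of 9 members at least 2-fold lower in A2 SMA MNs stayed between 7 and 9, and that of 2 higher between 2 and 4, under the alternatives that kept the 2-fold limit. Relative to the median symbol the counts were 7 and 4, and at 1.5-fold they were 17 and 5. The median log2 ratio of the members (-0.27) was -0.26 with a pseudocount of 0.1 FPKM, -0.25 with 1 FPKM, -0.10 with 1 FPKM and no filter on low values, and 0.015 relative to the median symbol, where the sign of 14 members turned. With a pseudocount of 1 FPKM no sign turned, the log2 ratio of Atp6v1g2 was -2.05, that of Atg4a was -0.67 and no longer 2-fold (8 lower), and Ctsj, then given a ratio, was counted as higher (3 higher). Leaving out members with at least 50% of their 50-base windows shared (Atg4a and Atg4a-ps), an alternative chosen after seeing the data, gave 8 lower, 2 higher and a median of -0.26. Summing the entries of a symbol, a floor of 5 FPKM, and leaving out shared entries or the status FAIL changed neither count by more than 1.5 times, and the paralog shares were the same when entries were summed.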

Other observations

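The placental cathepsins are not the only genes of the placenta in the table. The prolactin family, which includes hormones of the rodent placenta, has 25 symbols in the table and was chosen after the values of Ctsj were seen. In Hb9 control MNs 23 of them were listed at 0, and the highest level was 0.136 FPKM. In A2 SMA MNs 15 of these 23 were above 0 and 8 were at 0, while no symbol was at 0 in A2 SMA MNs alone. Of all 11852 symbols at 0 in Hb9 control MNs, 1553 (13.1%) were above 0 in A2 SMA MNs, beside 65.2% of the 23. Prl2a1 was the highest in A2 SMA MNs at 3.92 FPKM, followed by Prl7d1 at 3.50 FPKM, Prl4a1 at 3.31 FPKM and Prl2b1 at 2.48 FPKM, and 6 of the family reached 1 FPKM there against 0 in Hb9 control MNs. Over the whole table, 17 symbols were at 0 in Hb9 control MNs with at least 1 FPKM in A2 SMA MNs, and 37 the other way round. With 1 pooled value per genotype it is unknown how many of the 3 samples carry them.

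The proteolipid Atp6v0c (4.66 and 5.16 FPKM) was listed far below its V0 partners Atp6v0b (214 and 166 FPKM) and Atp6v0d1 (94.2 and 92.8 FPKM), although several copies of it stand in each assembled ring. Gabarapl2 (5.92 and 5.66 FPKM) and Atp6v1g1 (8.65 and 7.67 FPKM) were low beside their partners as well. These 3 genes share 32.5%, 17.0% and 19.2% of their 50-base windows with other genes. Shares of similar size were found for abundant members, such as Becn1 (45.7%, 173 and 126 FPKM), Ctsd (36.6%, 229 and 223 FPKM) and Ctsl (28.1%, 325 and 312 FPKM). Whether reads with several matches lowered the levels of the 3 genes was not tested.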
